A study of Homo sapiens with 30 samples.

Results

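The genes described here are 10 genes for secreted inflammatory cytokines and chemokines, namely CXCL8, CXCL1, CXCL2, CXCL3, CXCL5, IL6, IL11, LIF, CCL2 and CSF1. They were taken by gene name from the count table, in which each name had 1 row, and they are 10 of its 58780 genes. The assay was PRO-seq, precision nuclear run-on sequencing, of A549, an established line from a human lung adenocarcinoma. In PRO-seq, RNA polymerases already engaged on a gene extend their transcript by a labelled nucleotide. PRO-seq counts therefore follow synthesis of RNA and not the amount of stable mRNA. Cells received dexamethasone (Dex, a synthetic glucocorticoid, 100 nM), GSK591 (1 µM, which inhibits PRMT5, the main enzyme of symmetric arginine dimethylation) or MS023 (1 µM, which inhibits the Type I enzymes of asymmetric arginine dimethylation), alone or combined. The 15 groups of 2 libraries were untreated cells, Dex for 15 min, Dex for 3 h, Dex applied together with GSK591 or with MS023 for 3 h, GSK591 or MS023 alone for 2, 4 or 7 days, and 7 days (1 week in the titles) of GSK591 or MS023 with Dex for 15 min or 3 h. For the last groups the sample descriptions read 7 days then Dex. The labels do not say whether the inhibitor stayed on during Dex. All groups, the untreated one included, were in 0.01% DMSO, and the untreated label names 15 min although this group was the control for every treatment time. All groups are the same cell line, and nothing in the labels says that the 2 libraries of a group came from separate cultures, so p-values measure only the spread between these libraries, which may be technical.

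Inflammatory cytokines and chemokines are made by epithelial cells as well as by leukocytes, and their genes are controlled mainly by transcription factors of the NF-kB and AP-1 families. CXCL1, CXCL2, CXCL3, CXCL5 and CXCL8 are CXC chemokines that draw neutrophils through the receptor CXCR2, with CXCL8 also using CXCR1. CCL2 draws monocytes through CCR2, and CSF1 is a growth and survival factor of macrophages that acts through CSF1R. IL6, IL11 and LIF are cytokines of the family that signals through the shared receptor subunit IL6ST, each with a partner receptor of its own (IL6R, IL11RA and LIFR). Glucocorticoids are widely used as anti-inflammatory drugs, and the ligand-bound glucocorticoid receptor is known to lower transcription of many such genes and to raise genes that restrain inflammation or speed the decay of cytokine mRNA.

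The libraries had total counts of 8441211 to 13069598, of which mitochondrial genes took 58.7% to 78.7%, leaving 1892947 to 3488612 counts on nuclear genes. Values are given as CPM, that is counts per 1000000 counts, on library sizes scaled by the trimmed mean of M values (TMM), and are printed for replicate 1 and then replicate 2 of a group. Of 22919 genes that passed a filter on low counts, 9 were among the 10 genes followed, and IL6 did not pass. A gene was called when its Benjamini-Hochberg adjusted p, over all genes tested, was below 0.05 in the edgeR quasi-likelihood test. The mitochondrial share was 58.7% to 64.2% in the 3 groups with 7 days of MS023 and 68.5% to 78.7% in all groups without MS023. Scaling by total counts alone moved the median log2 fold change of all genes at 7 days of MS023 against untreated cells from 0.01 to 1.02, so levels in MS023 cells are relative to the other nuclear genes. All 8 epithelial and A549 marker genes checked had a median of at least 1 CPM, with a summed level of 1085 to 2086 CPM. Of 5 leukocyte markers, summed to 11.2 to 19.5 CPM, 3 had a median of at least 1 CPM, namely CSF1R (10.9 CPM), CD14 (2.31 CPM) and ITGAM (1.16 CPM), while PTPRC and CD3E had medians of 0.0735 and 0 CPM.

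In untreated cells, CXCL2, LIF and CSF1 had the most counts of the 10 genes. CXCL2 (chr4:74097035-74099293, minus strand, a protein-coding gene like all 10; coordinates of GENCODE 29 on hg38) stood at 16.3 and 17.9 CPM, CSF1 (chr1:109910242-109930992, plus strand) at 18.9 and 21.2 CPM and LIF (chr22:30240447-30246851, minus strand) at 16.6 and 13.9 CPM. CXCL5 (chr4:73995642-73998779, minus strand) and CXCL3 (chr4:74036589-74038807, minus strand) stood near 9 CPM, at 9.45 and 9.07 CPM and 8.34 and 10.1 CPM. CCL2 (chr17:34255218-34257203, plus strand) stood at 6.01 and 6.55 CPM, CXCL1 (chr4:73869393-73871242, plus strand) at 4.89 and 6.15 CPM and IL11 (chr19:55364389-55370463, minus strand) at 4.45 and 3.73 CPM. CXCL8 (chr4:73740506-73743716, plus strand) was low, at 1.33 and 1.41 CPM from 12 and 14 counts, and IL6 (chr7:22725884-22732002, plus strand) had 2 and 0 counts. Per kb of exon, the order of the means of the 2 untreated libraries was CXCL2 at 11.4 CPM per kb, then CXCL1 (4.26), CXCL3 (4.15), LIF (3.84), CSF1 (3.70), CXCL5 (3.65), CCL2 (3.16), IL11 (1.53), CXCL8 (0.604) and IL6 (0.0538). Per kb of the whole gene, introns included, it was CXCL2 (7.59), CXCL3 (4.15), CCL2 (3.16), CXCL1 (2.98), CXCL5 (2.95), LIF (2.38), CSF1 (0.965), IL11 (0.673), CXCL8 (0.427) and IL6 (0.0182). CCL2 thus stood higher in the order by the second length, and CSF1, of whose 20751 bp 15333 are intron, stood lower. Which of the 2 lengths the counts followed is not given in the sources used here.

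The 5 CXC chemokine genes lie within 358788 bp of chromosome 4, at chr4:73740506-74099293, with CXCL8 and CXCL1 on the plus strand and CXCL5, CXCL3 and CXCL2 on the minus strand. Between them lie CXCL6, PF4V1, PF4 and PPBP, of which CXCL6, PF4 and PPBP were also looked up and had at most 5, 9 and 1 counts in any library. The 250 bases upstream of each of the 5 starts (RefSeq, GRCh38.p14) are shown because these genes form a cluster and all 5 were called higher after 7 days of GSK591. Each is printed 5′ to 3′ in the direction of transcription and ends at the base before the start, with matches to an NF-kB-like motif (GGNNTTNCC) and an AP-1 motif (TGANTCA) in capitals. The windows are chr4:73740319-73740568 (plus strand) for CXCL8, chr4:73869143-73869392 (plus strand) for CXCL1, chr4:74099196-74099445 (minus strand) for CXCL2, chr4:74038690-74038939 (minus strand) for CXCL3 and chr4:73998678-73998927 (minus strand) for CXCL5.
CXCL8: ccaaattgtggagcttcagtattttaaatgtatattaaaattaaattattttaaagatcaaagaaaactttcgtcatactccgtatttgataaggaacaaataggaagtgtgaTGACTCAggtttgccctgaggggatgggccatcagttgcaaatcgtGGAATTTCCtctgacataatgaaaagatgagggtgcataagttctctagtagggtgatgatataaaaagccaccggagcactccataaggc
CXCL1: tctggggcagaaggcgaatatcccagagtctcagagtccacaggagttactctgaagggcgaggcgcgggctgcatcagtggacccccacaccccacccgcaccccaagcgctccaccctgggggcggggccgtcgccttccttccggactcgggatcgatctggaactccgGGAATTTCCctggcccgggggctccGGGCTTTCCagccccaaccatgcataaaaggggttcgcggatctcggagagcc
CXCL2: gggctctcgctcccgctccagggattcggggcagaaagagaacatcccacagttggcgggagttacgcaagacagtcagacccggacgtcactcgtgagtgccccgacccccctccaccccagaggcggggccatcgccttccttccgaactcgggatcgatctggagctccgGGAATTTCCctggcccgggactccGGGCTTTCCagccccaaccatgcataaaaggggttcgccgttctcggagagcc
CXCL3: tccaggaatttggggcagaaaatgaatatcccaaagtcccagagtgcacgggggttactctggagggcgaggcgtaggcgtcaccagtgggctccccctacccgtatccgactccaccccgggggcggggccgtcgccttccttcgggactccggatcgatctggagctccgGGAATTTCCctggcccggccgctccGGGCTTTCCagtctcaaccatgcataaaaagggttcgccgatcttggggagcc
CXCL5: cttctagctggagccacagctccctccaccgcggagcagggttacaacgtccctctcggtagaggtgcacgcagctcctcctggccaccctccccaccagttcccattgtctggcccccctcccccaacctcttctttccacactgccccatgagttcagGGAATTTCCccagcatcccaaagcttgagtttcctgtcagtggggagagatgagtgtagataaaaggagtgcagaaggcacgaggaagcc
The windows of CXCL1, CXCL2 and CXCL3 each held 2 NF-kB-like matches, at -78 to -70 and -53 to -45 before the start in CXCL1 and CXCL3 and at -77 to -69 and -53 to -45 in CXCL2. CXCL8 had 1 at -91 to -83, beside an AP-1 match at -137 to -131, and CXCL5 had 1 at -90 to -82. Over their last 100 bases, CXCL2 was identical to CXCL1 in 94.1% of aligned columns and to CXCL3 in 89.1%, while CXCL8 was identical to CXCL1 in 41.6%. For CXCL8, CXCL2, CXCL3 and CXCL5 the RefSeq start is not the outermost start of the GENCODE gene. On either strand, the NF-kB-like motif was found in 5 of these 5 windows and in 15% of 35116 RefSeq promoter windows of the same length, and the AP-1 motif in 6.57% of them. RefSeq also had an entry for IL6, with an NF-kB-like match at -72 to -64, and for IL11, with an AP-1 match at -96 to -90. The inverted-repeat consensus of the glucocorticoid response element was found in 0 of the 7 windows and in 0.327% of all windows. These are matches of letters only, and the matches do not overlap each other.

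**Figure D1:**
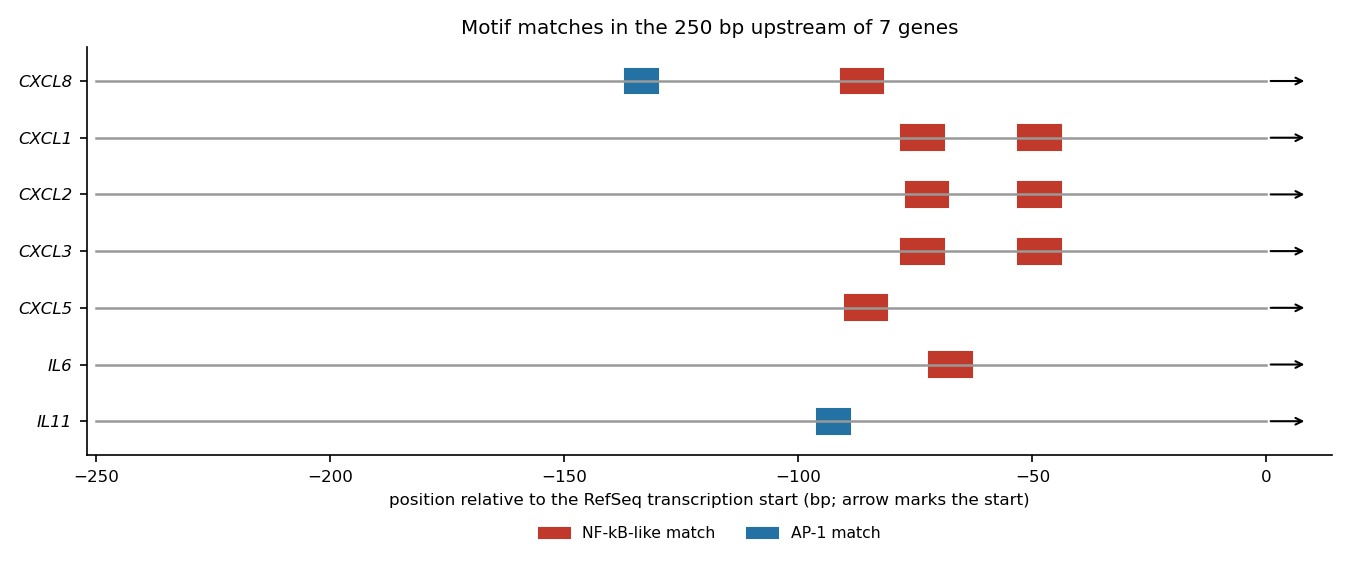
Positions of motif matches in the 250 bp upstream of 7 of the genes, on an axis in bp relative to the RefSeq transcription start, with NF-kB-like matches in red and AP-1 matches in blue. The 2 NF-kB-like matches of CXCL1, CXCL2 and CXCL3 lie at nearly the same distances from the start, CXCL8 and CXCL5 have 1 match each further upstream, and IL11 has only an AP-1 match.

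Counts of CXCL1, CXCL2 and CXCL3 carry an uncertainty of their own, because 14.5%, 23.2% and 9.90% of the 30-base stretches in their exons recur in another of the 3 genes, so reads there could be assigned to a neighbour or dropped. For CXCL5 and IL11, 5.38% and 6.29% of such stretches recur in genes outside the list. For LIF, 267 bp of exon overlap LIF-AS1 and AC004264.1 on the opposite strand, and for IL6, 428 bp overlap STEAP1B and AC073072.1. Whether the counting used strand is not given in the sources used here. The exons of the other genes overlap no other annotated exon.

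The first comparison asks how transcription of these genes responded to Dex. After 3 h of Dex, 6 of the 9 genes tested were called, all lower than in untreated cells, where 10.5% of all genes were called in either direction and 4.41% were called lower. In libraries of pooled cells, fewer transcribing cells and less transcription per cell cannot be told apart. The median log2 fold change was -0.94 for the 9 genes and -0.01 for all genes. The 6 were the neutrophil chemokines CXCL8, CXCL1 and CXCL3, the monocyte chemokine CCL2, the macrophage growth factor CSF1 and the cytokine LIF.

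CCL2 was at 2.23 and 2.08 CPM after 3 h of Dex against 6.01 and 6.55 CPM in untreated cells. Both Dex libraries lay below both controls, and CCL2 fell 2.90-fold, with a log2 fold change of -1.54 (SE 0.276, adjusted p = 5.36e-05). CXCL1 was at 1.70 and 2.56 CPM against 4.89 and 6.15 CPM. This was a 2.62-fold fall, with a log2 fold change of -1.39 (SE 0.270, adjusted p = 1.84e-04), again with no overlap between the groups. LIF, which keeps mouse embryonic stem cells undifferentiated and is made by many epithelia in inflammation, was at 7.55 and 8.18 CPM against 16.6 and 13.9 CPM. CSF1 was at 11.5 and 10.0 CPM against 18.9 and 21.2 CPM. These 2 genes fell by similar factors, LIF 1.94-fold with a log2 fold change of -0.95 (SE 0.183, adjusted p = 1.53e-04) and CSF1 1.86-fold with a log2 fold change of -0.90 (SE 0.159, adjusted p = 4.21e-05).

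CXCL8 gave few counts, 3 and 3 in the Dex libraries and 12 and 14 in the controls. The ratio of untreated to Dex counts, scaled for library size, was 4.03 (1.62 to 12.0) with its exact binomial 95% interval, which covers counting error only. In the fit CXCL8 had a log2 fold change of -1.97 (SE 0.573, adjusted p = 0.0167). CXCL3 was at 5.53 and 6.59 CPM against 8.34 and 10.1 CPM, a log2 fold change of -0.61 (SE 0.204, adjusted p = 0.0425). IL11, a cytokine known for roles in fibrosis and platelet formation, was at 1.59 and 2.69 CPM against 4.45 and 3.73 CPM and missed the threshold, with a log2 fold change of -0.94 (SE 0.329, adjusted p = 0.0551). CXCL2 and CXCL5 had log2 fold changes of -0.26 (95% interval -0.59 to 0.06) and -0.20 (-0.57 to 0.18) and were not called. For both, the Dex libraries still lay below the controls, at 13.4 and 15.3 CPM and 7.97 and 8.18 CPM. IL6 had 0 counts in both Dex libraries, and the controls together had 2, so both groups were under the floor of 3 counts used here and no fold is given.

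The calls of CCL2 and CXCL1 held under every alternative analysis run. Leaving out 1 library ended the call of CXCL8 (-2.07 to -1.87 without any 1 of the 4 libraries compared) and CXCL3 (-0.74 to -0.46 without any 1 of the 4 libraries compared), and IL11 was called without Dex 3 h replicate 2 (-1.35). Total-count scaling ended the calls of CXCL8 (-1.81), CXCL3 (-0.45), LIF (-0.78) and CSF1 (-0.74), and DESeq2 those of CXCL8 and CXCL3. The call of CXCL3 also ended with no filter on low counts (-0.61) and with the compared groups alone (-0.60).

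After 15 min of Dex, CXCL2 was the only gene of the 9 that was called, and it was higher, where 1.26% of all genes were called and 0.96% were called higher. CXCL2 was at 30.9 and 31.6 CPM against 16.3 and 17.9 CPM, a 1.82-fold rise with a log2 fold change of 0.86 (SE 0.149, adjusted p = 1.45e-04). The groups did not overlap, and the call held under every alternative run. At 3 h the same gene was at 13.4 and 15.3 CPM. None of the genes called lower at 3 h was called at 15 min. CCL2, for example, was at 4.54 and 5.10 CPM and LIF at 16.2 and 14.3 CPM, with 95% intervals of the log2 fold change of -0.85 to 0.09 and -0.33 to 0.34. IL11 was at 2.47 and 2.70 CPM, with a log2 fold change of -0.66 (SE 0.311, adjusted p = 0.604).

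**Figure D2:**
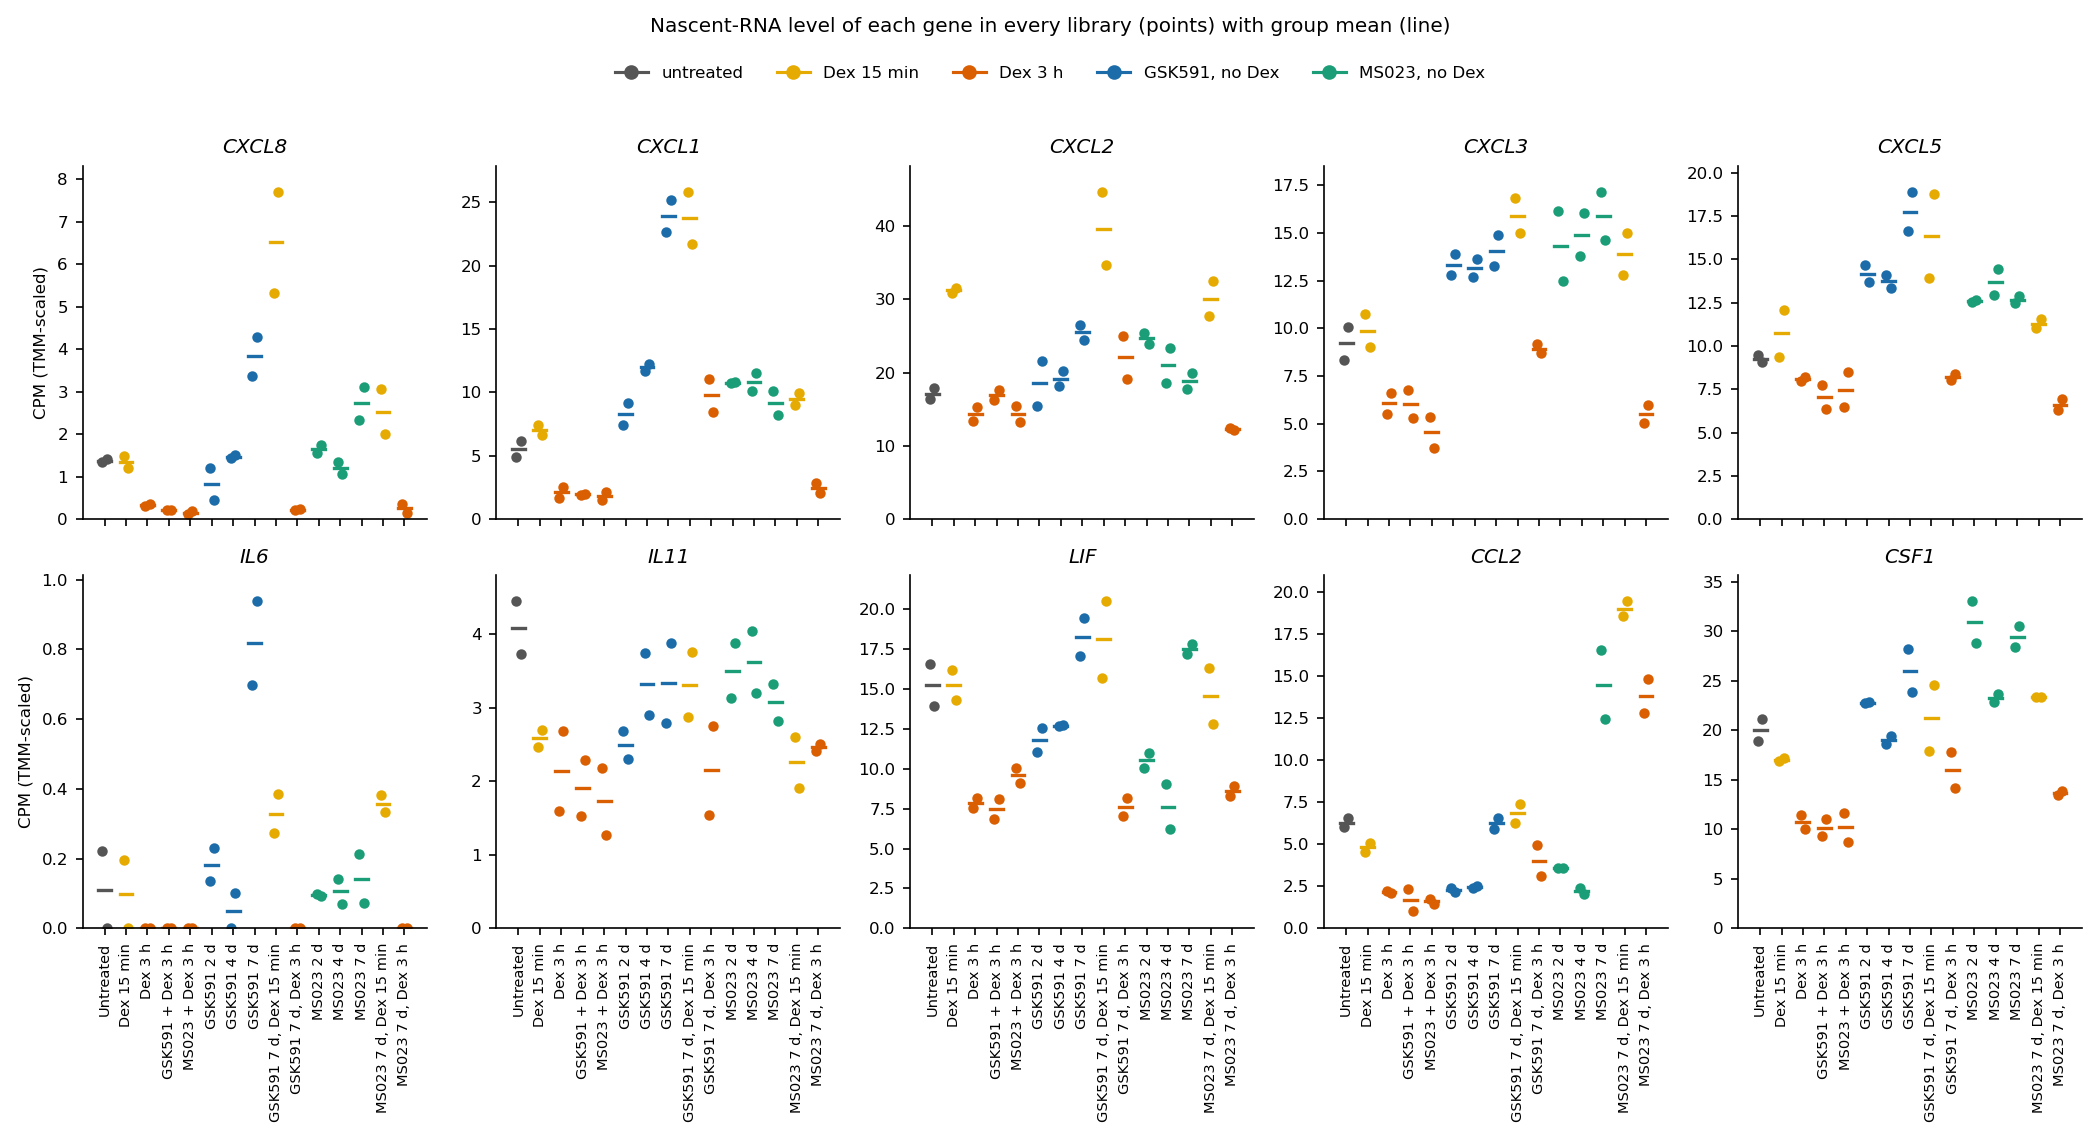
CPM of each of the 10 genes (vertical axes from 0, scale differing by gene) in every library of the 15 groups, with points for the 2 libraries and a line at their mean, coloured by Dex exposure and inhibitor. CXCL1 stands highest after 7 days of GSK591, CCL2 after 7 days of MS023 with or without Dex, and CXCL2 in the groups with 15 min of Dex, while the groups with 3 h of Dex are low for CXCL8 in all 5 cases.

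An inhibitor applied together with Dex for 3 h was compared with untreated cells and with Dex alone. Against untreated cells, 7 of 9 were called lower with GSK591 and Dex and 7 of 9 with MS023 and Dex, where 4.86% and 5.24% of all genes were called lower and 11.9% and 12% in either direction. Both sets were the 6 genes of Dex alone and IL11, and all 3 comparisons share the untreated libraries. IL11 was at 1.53 and 2.29 CPM with GSK591 and Dex, a log2 fold change of -1.09 (SE 0.329, adjusted p = 0.0202). With MS023 and Dex it was at 2.19 and 1.27 CPM, a log2 fold change of -1.25 (SE 0.335, adjusted p = 0.00823). CXCL8 had 2 and 2 counts with GSK591 and Dex, and 1 and 2 with MS023 and Dex. Set directly against Dex alone, 0 of the 9 genes were called for GSK591 and 0 for MS023, where 0% and 0.196% of all genes were called. In both comparisons 0 of the 9 had an unadjusted p below 0.05 in edgeR. DESeq2 also called 0, although with MS023 it gave an adjusted p for 2 of the genes only. The 95% interval of the log2 difference from Dex alone was -0.43 to 0.26 for CSF1 and -1.04 to 0.35 for CCL2 with GSK591. With MS023 it was -0.43 to 0.26 for CSF1 and -1.13 to 0.28 for CCL2. Of the calls against untreated cells, leaving out 1 library ended those of CXCL3 (-0.47 to -0.45 without untreated replicate 2 or GSK591 with Dex replicate 2) and IL11 (-0.96 to -0.83 without untreated replicate 1 or GSK591 with Dex replicate 1) with GSK591, and those of IL11 (-1.12 to -0.90 without untreated replicate 1 or MS023 with Dex replicate 2) and LIF (-0.60 to -0.55 without untreated replicate 1 or MS023 with Dex replicate 2) with MS023. Total-count scaling ended the calls of CSF1, CXCL3, IL11 and LIF in both comparisons, and DESeq2 that of IL11 in both and of CXCL3 with GSK591. The fit of the compared groups alone ended those of CXCL3, IL11 and LIF with MS023.

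The second question is how these genes changed over days of PRMT5 or Type I inhibition without Dex. With GSK591, 1 gene was called higher and 1 lower at 2 days, 3 higher and 1 lower at 4 days, and 5 higher and 0 lower at 7 days, of the 9 tested. Of all genes, 5.64%, 17.2% and 13.2% were called at these times, and 6.68% were called higher at 7 days. The 5 at 7 days were CXCL1, CXCL2, CXCL3, CXCL5 and CXCL8, all 5 chemokines of the chromosome 4 cluster that were followed. The 3 times share the untreated libraries, which carry a label of 15 min.

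CXCL1 had the largest log2 fold change of the 9 at 7 days of GSK591. It was at 7.39 and 9.19 CPM after 2 days, 11.7 and 12.2 CPM after 4 days and 22.7 and 25.2 CPM after 7 days of GSK591, against 4.89 and 6.15 CPM in untreated cells. No library of the 3 treated groups overlapped the controls, and the rise was 2.16-fold at 4 days and 4.31-fold at 7 days, with a log2 fold change of 2.11 (SE 0.191, adjusted p = 8.36e-12) at the last time. CXCL8 was at 3.37 and 4.29 CPM (29 and 32 counts) after 7 days, a log2 fold change of 1.46 (SE 0.377, adjusted p = 0.00536). CXCL5, an epithelial chemokine first known from lung epithelial cells, was at 14.7 and 13.7 CPM, 14.1 and 13.3 CPM and 16.6 and 18.9 CPM at the 3 times. It was called at each, with log2 fold changes of 0.61, 0.57 and 0.94. At 7 days CXCL2 was at 26.5 and 24.5 CPM and CXCL3 at 13.3 and 14.9 CPM, with log2 fold changes of 0.57 (adjusted p = 0.00765) and 0.60 (adjusted p = 0.0199).

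CCL2 went the other way at first. It was at 2.42 and 2.18 CPM after 2 days and 2.40 and 2.51 CPM after 4 days of GSK591, both below both controls, with log2 fold changes of -1.45 (adjusted p = 6.69e-04) and -1.35 (adjusted p = 1.33e-04). At 7 days it was at 5.93 and 6.57 CPM, with libraries that overlapped the controls and a 95% interval of the log2 fold change of -0.48 to 0.46. LIF, CSF1 and IL11 were not called at any time with GSK591 in the edgeR test, and their log2 fold changes at 7 days were 0.26, 0.38 and -0.30. The authors' deposited table of comparisons with untreated cells called LIF at 2, 4 and 7 days, with -0.28, -0.26 and 0.30. IL6, which was not tested, had 6 and 7 counts at 7 days against 2 and 0 in untreated cells, a count ratio of 7.65 (1.73 to 69.8) with its exact binomial 95% interval, whose divisor is only 2 counts. In the GSK591 comparisons with untreated cells, leaving out 1 library ended the calls of CXCL5 (0.56 to 0.66 without any 1 of the 4 libraries compared) at 2 days, of CXCL3 (0.38 to 0.66 without any 1 of the 4 libraries compared) and CXCL5 (0.52 to 0.61 without any 1 of the 4 libraries compared) at 4 days and of CXCL8 (1.29 to 1.51 without untreated replicate 1, untreated replicate 2 or GSK591 7 days replicate 2), CXCL2 (0.51 to 0.51 without untreated replicate 1 or GSK591 7 days replicate 1) and CXCL3 (0.47 to 0.68 without untreated replicate 1, GSK591 7 days replicate 1 or GSK591 7 days replicate 2) at 7 days. DESeq2 ended those of CXCL5 at 2 days, of CXCL3 and CXCL5 at 4 days and of CXCL3 at 7 days, and total-count scaling those of CXCL2 and CXCL3 at 7 days. Having no filter on low counts ended that of CXCL3 at 4 days (0.51). Calls were gained too, CXCL3 at 2 days with total-count scaling (0.82) and with the compared groups alone (0.54), and CSF1 at 7 days with DESeq2 size factors (0.41) and with the compared groups alone (0.40). CXCL1 at 4 and 7 days and CCL2 at 2 and 4 days kept theirs under every alternative.

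With MS023, 4 genes were called higher and 2 lower at 2 days, 3 higher and 2 lower at 4 days, and 4 higher at 7 days, where 10.4%, 14.2% and 13.6% of all genes were called and 7.13% were called higher at 7 days. CXCL1 and CXCL3 were higher at all 3 times. CXCL1 was at 10.8 and 10.8 CPM, 10.1 and 11.5 CPM and 10.1 and 8.18 CPM, all above the controls, with log2 fold changes of 0.96, 0.96 and 0.72. CXCL3 was at 16.1 and 12.5 CPM, 13.8 and 16.0 CPM and 17.1 and 14.6 CPM, with log2 fold changes of 0.63, 0.69 and 0.78. CXCL1 was thus 1.65-fold to 1.95-fold higher over the 3 times of MS023. CXCL2 was called at 2 days only (0.52) and CXCL5 at 4 days only (0.56), and CXCL8 was not called, with 33 and 43 counts at 7 days and a log2 fold change of 0.98 (SE 0.371, adjusted p = 0.0687).

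CCL2 changed direction during MS023. It was at 3.62 and 3.60 CPM after 2 days and 2.42 and 2.06 CPM after 4 days, both groups below the controls, and at 16.6 and 12.4 CPM after 7 days, above them. The log2 fold changes were -0.80 (adjusted p = 0.0254), -1.48 (adjusted p = 1.98e-05) and 1.21 (adjusted p = 1.91e-05), the last a 2.31-fold rise. LIF was lower at 2 and 4 days, at 10.1 and 11.0 CPM and 9.02 and 6.19 CPM, with log2 fold changes of -0.53 and -0.998. The 2 day value of LIF turned to 0.15 with total-count scaling, and at 7 days LIF stood at 17.2 and 17.8 CPM and was not called. CSF1 was higher at 2 days, at 33.0 and 28.8 CPM, and at 7 days, at 28.4 and 30.5 CPM, with log2 fold changes of 0.62 and 0.55. IL11 was not called at any time, with a 95% interval of the log2 fold change of -0.99 to 0.18 at 7 days. In the MS023 comparisons with untreated cells, leaving out 1 library ended the calls of CXCL2 (0.46 to 0.59 without any 1 of the 4 libraries compared), CXCL3 (0.42 to 0.50 without untreated replicate 1 or MS023 2 days replicate 1), LIF (-0.65 to -0.40 without any 1 of the 4 libraries compared), CCL2 (-0.86 to -0.73 without any 1 of the 4 libraries compared) and CSF1 (0.51 to 0.55 without untreated replicate 1 or MS023 2 days replicate 1) at 2 days, of CXCL3 (0.57 to 0.58 without untreated replicate 1 or MS023 4 days replicate 2) and CXCL5 (0.49 to 0.60 without untreated replicate 1, untreated replicate 2 or MS023 4 days replicate 2) at 4 days and of CXCL1 (0.56 to 0.57 without untreated replicate 1 or MS023 7 days replicate 1), CXCL3 (0.66 without untreated replicate 1) and CSF1 (0.48 to 0.50 without untreated replicate 1 or MS023 7 days replicate 2) at 7 days. Total-count scaling raised the count at 7 days from 4 to 8 genes higher, and ended the calls of CCL2 at 2 days and LIF at 4 days. With it the counts were 5 higher and 0 lower at 2 days and 5 higher and 1 lower at 4 days, with CXCL5 (1.12) gained at 2 days and CXCL2 (1.03) and CSF1 (0.96) at 4 days. The compared groups alone added CXCL8 (0.98) and CXCL5 (0.45) at 7 days. DESeq2 lowered the count at 2 days from 6 to 2, leaving CXCL1 and CSF1, and ended the call of CXCL5 at 4 days.

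**Figure D3:**
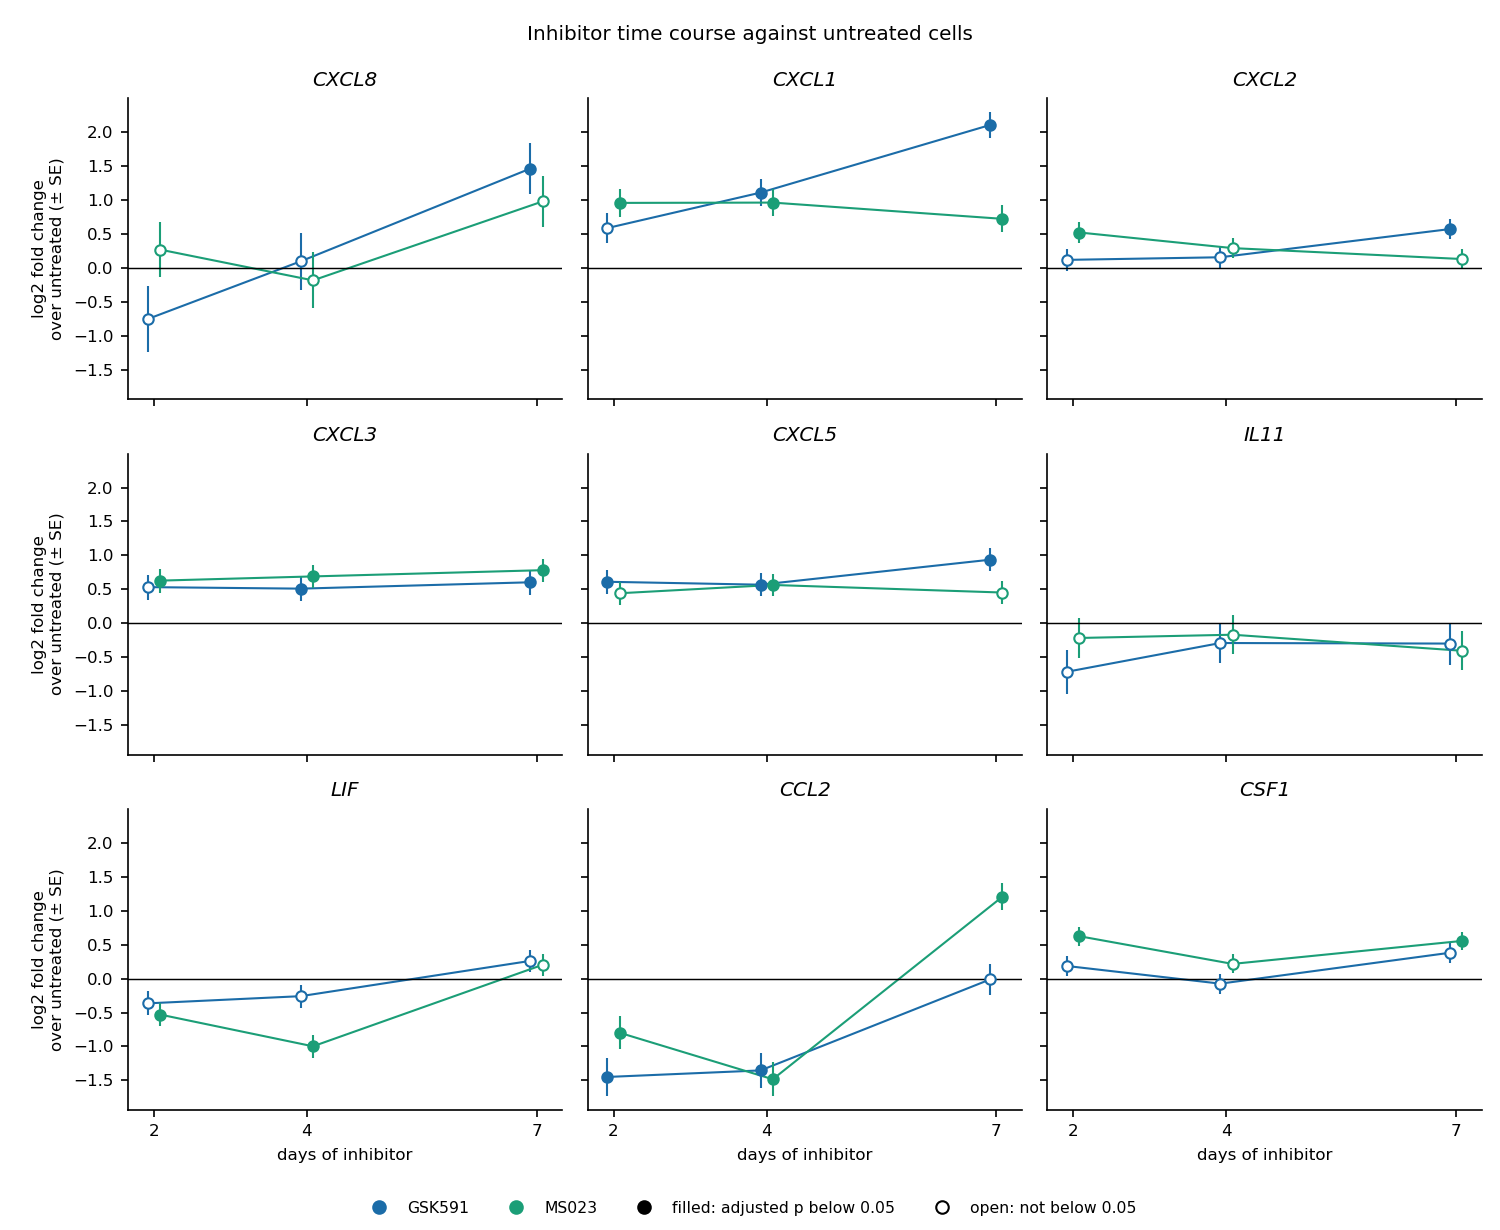
Log2 fold change over untreated cells (vertical axis, ± SE) against days of GSK591 (blue) or MS023 (green) for the 9 genes tested, with filled points where the adjusted p was below 0.05. CXCL1 climbs with GSK591 to 2.11 and stays between 0.72 and 0.96 with MS023, and CCL2 is below 0 at 2 and 4 days with both and reaches 1.21 at 7 days of MS023. With total-count scaling the value of LIF at 2 days of MS023 lies above 0.

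The 2 inhibitors were then compared directly at the same dose and time, over 9 genes at each of 3 times, with p-values adjusted over all genes. At 2 days 0 of the 9 were called, where 2.69% of all genes were, although 4 of the 9 had an unadjusted p below 0.05 in edgeR. DESeq2 also called 0 at that time, total-count scaling called CSF1 and CXCL2, and a fit of the 2 groups alone called CSF1. The 2 day difference in CSF1, for example, was -0.44 with a 95% interval of -0.72 to -0.16. At 4 days LIF was the only one called, higher with GSK591, where 6.03% of all genes were called and 2.51% were called higher. LIF was at 12.7 and 12.7 CPM with GSK591 and 9.02 and 6.19 CPM with MS023, a log2 difference of 0.74 (SE 0.174, adjusted p = 0.00416). At 7 days 4 were called, 3 higher with GSK591 and 1 lower, where 9.38% of all genes were called. With total-count scaling the split was 0 higher and 7 lower.

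CXCL1 at 7 days was at 22.7 and 25.2 CPM with GSK591 and 10.1 and 8.18 CPM with MS023, a 2.61-fold difference with a log2 difference of 1.38 (SE 0.171, adjusted p = 4.50e-08). CCL2 was the reverse, at 5.93 and 6.57 CPM with GSK591 and 16.6 and 12.4 CPM with MS023, a log2 difference of -1.22 (SE 0.206, adjusted p = 3.12e-05). Neither pair of groups overlapped. CXCL2 and CXCL5 were higher with GSK591 by 0.44 (adjusted p = 0.0466) and 0.48 (adjusted p = 0.0415) on the log2 scale, but with total-count scaling these 2 differences were -0.60 and -0.57, where the median of all genes moved to -1.07. The CCL2 difference held under every alternative, and that of CXCL1 under all but total-count scaling, at 0.33. DESeq2 and the analysis with no filter on low counts ended the calls of CXCL2 and CXCL5. For the 5 genes not called at 7 days, the log2 differences had 95% intervals of -0.17 to 1.14 (CXCL8), -0.51 to 0.16 (CXCL3), -0.51 to 0.72 (IL11), -0.26 to 0.38 (LIF) and -0.45 to 0.10 (CSF1). With total-count scaling CXCL3 (-1.23), IL11 (-0.96), LIF (-0.996) and CSF1 (-1.20) were called lower with GSK591. Leaving out 1 library ended the call of LIF (0.49 to 0.73 without GSK591 4 days replicate 1 or MS023 4 days replicate 2) at 4 days, and of CXCL2 (0.37 to 0.53 without any 1 of the 4 libraries compared) and CXCL5 (0.39 to 0.57 without any 1 of the 4 libraries compared) at 7 days.

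**Figure D4:**
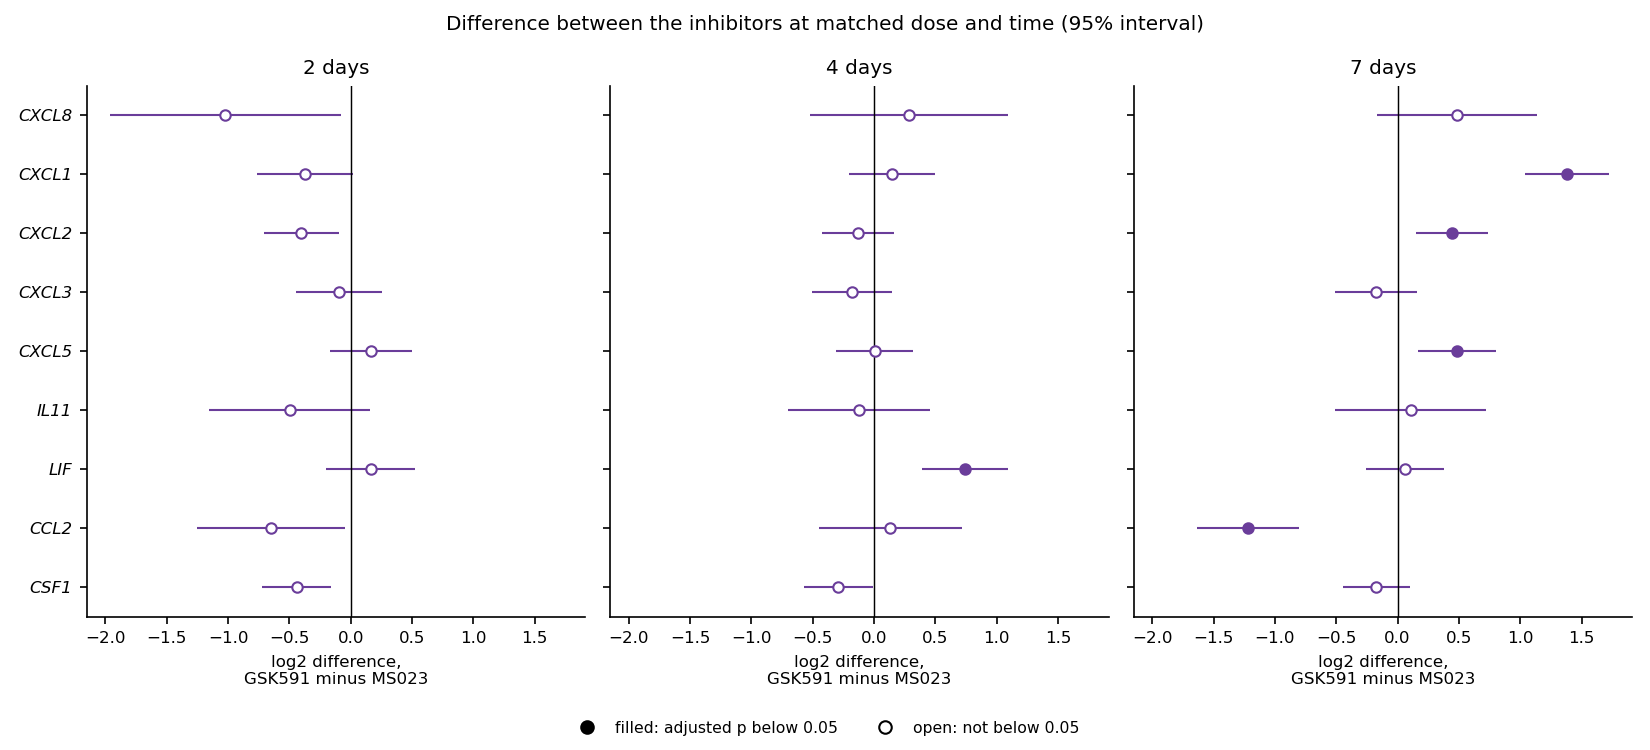
Log2 difference between GSK591 and MS023 (horizontal axis, GSK591 minus MS023, with 95% intervals) for the 9 genes at 2, 4 and 7 days, filled where the adjusted p was below 0.05. At 7 days CXCL1 lies at 1.38 and CCL2 at -1.22, on opposite sides of 0. Of the genes called with either scaling, CXCL2, CXCL5, IL11 and LIF lie above 0 here and below it with total-count scaling. CXCL8, called with neither, also lies above 0 here.

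The third question is how cells treated for 7 days responded to Dex. After 3 h of Dex, 6 of the 9 genes were called lower than GSK591 alone and 7 of the 9 were called lower than MS023 alone, where 4.46% and 5.38% of all genes were called lower and 9.85% and 11.1% in either direction. CXCL8, CXCL1, CXCL3, CXCL5, LIF and CSF1 were called in both, and CXCL2 after MS023 only. CXCL8 had 2 and 2 counts after GSK591 and Dex against 29 and 32 with GSK591 alone, and 5 and 2 after MS023 and Dex against 33 and 43 with MS023 alone. Scaled for library size, the ratio of counts without Dex to those with Dex was 16.9 (6.27 to 64.0) for GSK591 and 10.6 (4.89 to 27.2) for MS023, with exact binomial 95% intervals. These were the largest folds of the 9 genes, with log2 fold changes of -4.01 (SE 0.534) and -3.34 (SE 0.466) in the fit.

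CXCL1 was at 11.0 and 8.48 CPM after GSK591 and Dex, a log2 fold change of -1.29 (SE 0.178, adjusted p = 2.87e-07), and both libraries lay above the 4.89 and 6.15 CPM of untreated cells. After MS023 and Dex it was at 2.86 and 2.07 CPM, a log2 fold change of -1.89 (SE 0.213, adjusted p = 1.51e-09). CXCL5, which was not called with Dex alone, was at 8.05 and 8.37 CPM and 6.30 and 6.94 CPM after GSK591 and MS023, with log2 fold changes of -1.11 and -0.94. With Dex alone it was at 7.97 and 8.18 CPM. CXCL3 was at 9.15 and 8.71 CPM and 5.05 and 5.98 CPM, with log2 fold changes of -0.65 and -1.52. LIF fell by 1.26 and 1.02 and CSF1 by 0.70 and 1.11 on the log2 scale after GSK591 and MS023.

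CCL2 was the gene that Dex lowered in untreated cells and that was not called lower after either inhibitor. After GSK591 it was at 4.96 and 3.10 CPM with Dex against 5.93 and 6.57 CPM without, a log2 fold change of -0.62 (SE 0.252, adjusted p = 0.115). After MS023 it was at 12.8 and 14.8 CPM with Dex against 16.6 and 12.4 CPM without, a log2 fold change of -0.07 (SE 0.176, adjusted p = 0.875) with a 95% interval of -0.42 to 0.28. Without GSK591 with Dex 3 h replicate 1 the fall after GSK591 was called, at -1.01. The MS023 groups overlapped, and both libraries with MS023 and Dex lay above both untreated libraries. The difference between responses was tested as an interaction, that is, the log2 fold change with Dex in inhibitor-treated cells less the one in cells without inhibitor. For CCL2 it was 1.47 (SE 0.330, adjusted p = 0.0342) with MS023 and 0.91 (SE 0.379, adjusted p = 0.432) with GSK591. It was the only one of the 9 genes called in the MS023 interaction, where 0.223% of all genes were called and 0.0785% were above 0 and called, and 0 of 9 were called in that of GSK591, where 0.223% were. The MS023 interaction of CCL2 lost its call without any 1 of 7 of the 8 libraries in it, all but MS023 7 days replicate 1, at values of 1.28 to 1.58, and with total-count scaling, at 1.30. DESeq2 gave an adjusted p for 2 of the 9 genes in it, CCL2 not among them, and called 0. The mitochondrial share moved with the MS023 groups. When genes of the mitochondrial genome and of rRNA were dropped, the CCL2 interaction was still called. None of the 207 gene and comparison pairs gained or lost a call in that refit. Whether the change in mitochondrial share itself affected CCL2 was not tested.

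Other interactions at 3 h were not called. CXCL8 had -2.04 (SE 0.934) with GSK591 and -1.37 (SE 0.852) with MS023, CXCL5 had -0.91 (adjusted p = 0.132) and -0.74 (adjusted p = 0.258), and CXCL3 had -0.91 (adjusted p = 0.163) with MS023. In edgeR, 3 of the 9 had an unadjusted p below 0.05 in the GSK591 interaction, and DESeq2, which gave an adjusted p for 5 of them, called 0 there. IL6 had 0 counts in both groups with an inhibitor and 3 h of Dex, against 6 and 7 with GSK591 alone and 3 and 1 with MS023 alone. With the 0 counts set to a floor of 3 counts over the group, IL6 was 4.80-fold lower with Dex after GSK591. The exact binomial 95% interval of the ratio begins lower, at 3.38. Without the filter on low counts IL6 was called lower in that comparison. In the response to 3 h of Dex after an inhibitor, leaving out 1 library ended the calls of CXCL3 (-0.69 to -0.57 without GSK591 7 days replicate 2, GSK591 with Dex 3 h replicate 1 or GSK591 with Dex 3 h replicate 2) and CSF1 (-0.57 to -0.55 without GSK591 7 days replicate 1 or GSK591 with Dex 3 h replicate 2) after GSK591 and of CXCL2 (-0.53 without MS023 7 days replicate 2) after MS023. Total-count scaling ended those of CXCL3 (-0.44) and CSF1 (-0.49) after GSK591 and CXCL2 (-0.63) after MS023, and DESeq2 that of CXCL3 after GSK591.

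At 15 min of Dex after an inhibitor, CXCL2 was again the only gene of the 9 called, where 2.09% of all genes were called after GSK591 and 2.07% after MS023, with 1.07% and 1.23% called higher. After GSK591 it was at 44.7 and 34.6 CPM with Dex against 26.5 and 24.5 CPM without, a log2 fold change of 0.63 (SE 0.144, adjusted p = 0.00877). After MS023 it was at 27.7 and 32.5 CPM against 17.7 and 19.9 CPM, a log2 fold change of 0.68 (SE 0.140, adjusted p = 0.00228). In each of the 3 settings both Dex libraries lay above both libraries without Dex. CXCL8 after GSK591 was at 5.33 and 7.70 CPM with 15 min of Dex against 3.37 and 4.29 CPM without, with no overlap, a count ratio of 1.77 (1.29 to 2.45) and an adjusted p of 0.223. The interactions of CXCL2 at 15 min were -0.24 (95% interval -0.66 to 0.18) with GSK591 and -0.19 (-0.60 to 0.22) with MS023. Of the 9 genes, 0 were called in either, where 0.00436% of all genes were in each, and 0 and 1 had an unadjusted p below 0.05 in edgeR. DESeq2 called 0 in both. Leaving out 1 library ended the calls of CXCL2 (0.43 to 0.68 without GSK591 7 days replicate 1, GSK591 7 days replicate 2 or GSK591 with Dex 15 min replicate 1) after GSK591 and of CXCL2 (0.55 to 0.60 without MS023 7 days replicate 1 or MS023 with Dex 15 min replicate 2) after MS023, and total-count scaling ended both.

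**Figure D5:**
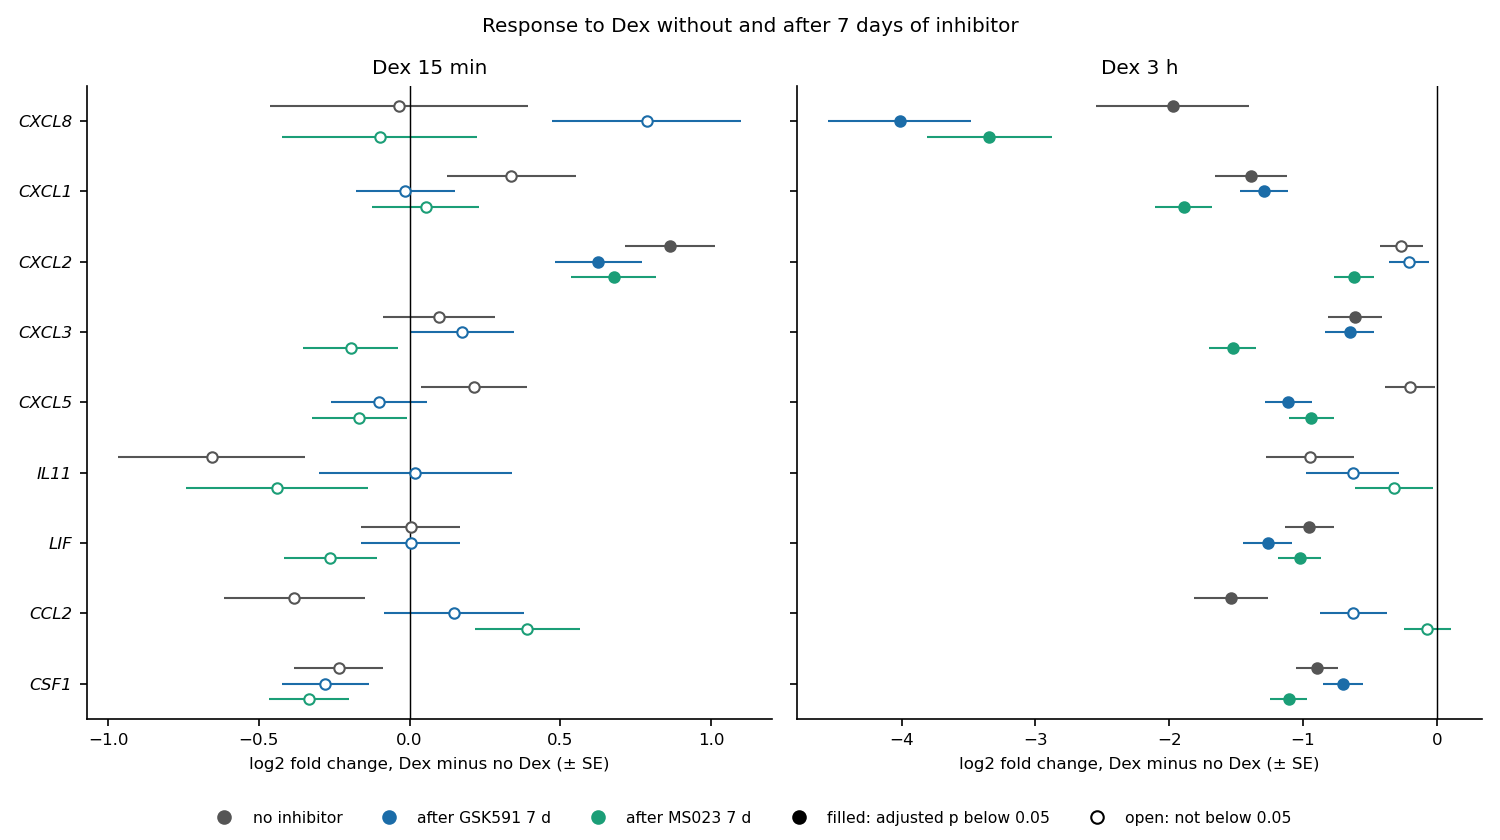
Log2 fold change with Dex (horizontal axis, Dex minus no Dex, ± SE) for the 9 genes at 15 min and 3 h, without inhibitor (grey) and after 7 days of GSK591 (blue) or MS023 (green), filled where the adjusted p was below 0.05. CXCL2 is the only gene with filled points at 15 min, and at 3 h CCL2 lies at -1.54 without inhibitor, -0.62 after GSK591 and -0.07 after MS023.

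Over all 15 groups, the ratio of the highest to the lowest group mean was largest for CXCL8, from 0.153 to 6.51 CPM, where the lowest rests on 1 and 2 counts, followed by CXCL1 (1.84 to 23.9 CPM) and CCL2 (1.61 to 19.0 CPM). In CPM, CXCL2 had the widest range, 12.2 to 39.7 CPM. LIF ranged from 7.48 to 18.3 CPM and IL11 from 1.73 to 4.09 CPM. The highest group was GSK591 for 7 days, with or without 15 min of Dex, for CXCL1, CXCL2, CXCL3, CXCL5, CXCL8, IL6 and LIF, MS023 for 7 days with 15 min of Dex for CCL2, MS023 for 2 days for CSF1 and untreated cells for IL11. The lowest was a group with 3 h of Dex for all 9 genes tested. In the order of means, neighbours overlapped in 13 of 14 steps for IL11, 12 for CXCL3, 11 for CXCL5, 10 for CXCL1, CXCL2 and CCL2, 8 for CSF1, 7 for LIF and 6 for CXCL8. The next group below the highest overlapped it for CXCL1, CXCL3, CXCL5, IL11, LIF and CSF1, and not for CXCL8, CXCL2, CCL2 and IL6, for example 22.7 and 25.2 CPM and 25.8 and 21.7 CPM for CXCL1.

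Genes of the same pathways were looked up from lists of related genes, with CPM on the same scaling. Of all genes, 1.26% were called in either direction after 15 min of Dex, 10.5% after 3 h of Dex, 13.2% after 7 days of GSK591 and 13.6% after 7 days of MS023, as background for the counts of each list. Among 23 other cytokines and chemokines, 12 passed the filter on low counts. Of these 12, 1 higher and 3 lower were called after 3 h of Dex, 4 higher and 0 lower after 7 days of GSK591 and 3 higher and 2 lower after 7 days of MS023. With total-count scaling these counts were 1 higher and 1 lower, 2 higher and 0 lower, and 8 higher and 0 lower. TGFB2, a growth factor of the TGF-beta family, was at 4.15 and 4.27 CPM with Dex against 12.9 and 14.7 CPM in untreated cells, a log2 fold change of -1.71 (SE 0.206, adjusted p = 9.88e-09). CSF3, the growth factor of neutrophils, was the 1 that was higher, at 7.12 and 5.98 CPM against 4.34 and 2.72 CPM, with 0.91. After 7 days of either inhibitor GDF15, a stress-induced cytokine, was higher, with log2 fold changes of 0.88 for GSK591 and 1.31 for MS023. CX3CL1 was higher too, with 1.31 and 1.22. TNF, which with IL1B is a classical inducer of these chemokines, had at most 2 counts in any library. IL1B, which passed the filter on low counts, had at most 23.

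Of 19 receptors, 15 passed the filter, and 3 higher and 1 lower were called after 3 h of Dex (2 higher and 0 lower with total-count scaling). IL6R, the receptor of IL6, was at 26.3 and 27.8 CPM with Dex against 7.90 and 13.3 CPM, a log2 fold change of 1.34 (SE 0.162, adjusted p = 1.21e-08). It was also higher with 3 h of Dex after GSK591 (1.07) and after MS023 (1.03). OSMR, the receptor of oncostatin M, was lower, with -0.63, a call that total-count scaling ended (-0.45). The chemokine receptors CXCR1, CXCR2 and CCR2 did not pass the filter and had at most 2, 4 and 1 counts in any library. Of 6 genes that signalling through IL6ST induces or that restrain it, 2 higher and 0 lower were called after 3 h of Dex, namely SOCS1 (1.52) and BCL6 (1.30).

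Of 14 NF-kB factors and inhibitors, 3 higher and 1 lower were called after 15 min and 2 higher and 2 lower after 3 h of Dex, and with total-count scaling 3 higher and 0 lower, and 2 higher and 2 lower. NFKBIA, the inhibitor that holds NF-kB in the cytoplasm, was at 179.8 and 179 CPM after 15 min and 152 and 154 CPM after 3 h against 65.8 and 79.4 CPM in untreated cells, with log2 fold changes of 1.30 and 1.07. TNFAIP3 and BIRC3, which restrain or modify signalling to NF-kB, were higher at 15 min, with 1.48 and 1.34. The NF-kB subunits RELB and NFKB2 were lower at 3 h, with -1.99 and -1.79. They were also lower after 7 days of MS023, with -1.32 and -1.02, but total-count scaling ended both calls and moved these to -0.29 and 0.01. Of the 14 genes, 0 higher and 1 lower were called after 7 days of GSK591, with either scaling. After 7 days of MS023 the counts were 0 higher and 5 lower, and 10 higher and 0 lower with total-count scaling. Of 8 AP-1 factors, 3 higher and 2 lower were called after 3 h of Dex, with JUN at -1.21, FOSL1 at -1.30 and JUNB at 0.76, and 5 higher and 1 lower after 7 days of GSK591, with JUN at 0.74. With total-count scaling these counts were 2 higher and 2 lower, and 2 higher and 0 lower. After 7 days of MS023, 4 higher and 1 lower of the AP-1 factors were called, and 7 higher and 0 lower with total-count scaling. A last list held 10 genes that speed the decay of cytokine mRNA or are known targets of glucocorticoids. They were ZFP36, ZFP36L1, ZFP36L2, ZC3H12A, DUSP1, TSC22D3, IRAK3, PER1, FKBP5 and SGK1. Of these, 6 higher and 0 lower were called after 15 min and 9 higher and 0 lower after 3 h of Dex (7 higher and 0 lower, and 9 higher and 0 lower, with total-count scaling). Because known glucocorticoid targets were put on this list by choice, its counts are no test of a response to Dex. ZFP36, which binds cytokine mRNA for decay, was at 196 and 197 CPM after 15 min against 56.8 and 55.4 CPM, and TSC22D3, known as GILZ, was at 114 and 112 CPM after 3 h against 13.5 and 16.9 CPM. With 3 h of Dex after GSK591 and after MS023 the counts of this list were 9 higher and 0 lower, and 9 higher and 0 lower, where 9.85% and 11.1% of all genes were called.

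The gene most like the 9 genes in its profile over the 15 group means was SYNPO, with a Pearson r of 0.972 to the mean of their standardised profiles, followed by TNFRSF21 (0.961), a receptor of the TNF receptor family, and TGFB2-AS1 (0.960), among 11110 genes whose mean level was 5 CPM or more. These r describe 15 means that share libraries and depth. SYNPO was at 54.2 and 48.4 CPM in untreated cells, 35.2 and 25.6 CPM after 3 h of Dex and 70.4 and 73.7 CPM after 7 days of GSK591. The r of the 9 genes to the same mean, of which each is a part, ranged from 0.510 for CCL2 to 0.954 for CXCL8.

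The authors' deposited table of comparisons with untreated cells was set beside these calls for 10 comparisons and the 9 genes it lists, CSF1 not being among the rows used. In 29 gene and comparison pairs both the authors' deposited table and the edgeR test made a call, and in 29 of these the direction was the same. The authors' deposited table gives mean normalised counts of 1104 for LIF and 134 for CXCL2, where the count table averaged 126 and 224 counts per library, and whether both come from the same counting is not given in the sources used here. A further 13 pairs were called here only and 7 in the authors' deposited table only. Among these 7 were CXCL2 (-0.76) and IL11 (-0.98) at 3 h of Dex, and CXCL5 (-0.96) with GSK591 and Dex. The rest were CXCL1 (0.94) at 2 days of GSK591, and LIF (-0.28, -0.26 and 0.30) at 2, 4 and 7 days of GSK591. For CXCL1 at 7 days of GSK591 the authors' deposited table gives a log2 fold change of 2.65 and for CCL2 at 7 days of MS023 one of 0.97. After 7 days of inhibitor and 3 h of Dex, against untreated cells, the authors' deposited table gives 0.89 for CCL2 with MS023 and 0.91 for CXCL1 with GSK591, both called higher.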

How the data were processed

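The 10 genes and the related gene lists were chosen with earlier results of these data known. Per the submitters' processing notes, reads were assigned to genes with featureCounts 2.0.1 of Subread on hg38, and the deposited table lists raw counts of 58780 genes, whose identifiers all match GENCODE 29. The aligner, the feature type counted and the strand setting are not given in the sources used here, and the deposited table was used as it stands, with no correction for reads shared between similar genes. The authors' deposited comparison tables hold, per the file headers, a mean normalised signal per gene, log2 fold changes with their errors, and p-values with adjusted p-values, from DESeq2 per the file names. They were read only for the members and were not re-derived.

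Counts of all 30 libraries in 15 groups of 2 were fitted together under R 4.3.3 with edgeR 4.0.16 and limma 3.58.1, scaled by TMM, after filterByExpr (minimum count 10, minimum total 15), which left 22919 genes. Quasi-likelihood F tests gave 23 comparisons, each with Benjamini-Hochberg adjustment over all genes tested and a threshold of 0.05. The 95% intervals of log2 values use the total degrees of freedom of the fit. Count ratios of low genes have exact binomial 95% intervals, which cover counting error only. The script was tested on simulated data. Total counts were 8441211 to 13069598, and the Pearson r between the 2 libraries of a group was 0.924 to 0.984. In no group did the 2 libraries differ by so little that they could be a repeat deposit of 1 library (chi-square per degree of freedom 2.43 to 45.6). Libraries of different groups were not compared in this way.

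The alternatives were DESeq2 1.42.0, DESeq2 size factors, total-count scaling, no filter on low counts, no mitochondrial or ribosomal RNA genes, the compared groups alone, a replicate block, and leaving out each library in turn. Genes named from the related lists were the called genes with the largest change, at most 3 per list and comparison, with a mean of at least 1 CPM, together with inducers and receptors of low counts chosen after their values were seen. Profile likeness used log2 of the CPM with a pseudocount of 0.5.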

Additional observations from a re-analysis of the deposited data

Results flagged for a closer look

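The response differed between the 2 inhibitors, by a direct test at the same dose and time, for 5 gene and time pairs, and between cells with and without MS023 for 1 gene. At 4 days LIF was higher with GSK591 than with MS023, with a log2 difference of 0.74 (SE 0.174, adjusted p = 0.00416). At 7 days the log2 differences between GSK591 and MS023 were 1.38 for CXCL1, 0.44 for CXCL2, 0.48 for CXCL5 and -1.22 for CCL2. Those of CXCL2 and CXCL5 changed sign with total-count scaling, and lost their calls with DESeq2, with no filter on low counts and without any 1 of the 4 libraries compared. The call of LIF was lost with total-count scaling and without GSK591 4 days replicate 1 or MS023 4 days replicate 2, that of CXCL1 with total-count scaling, and that of CCL2 under none of the 11 alternatives. For CCL2 the response to 3 h of Dex differed after 7 days of MS023 from that without it, by 1.47 on the log2 scale (SE 0.330, adjusted p = 0.0342 in edgeR's quasi-likelihood test), a call that was lost under 8 of 14 alternatives, namely total-count scaling and leaving out any 1 of 7 of its 8 libraries. All 6 rest on groups of 2 libraries, and groups of 2 are too small to look for single libraries that stand apart.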

How the results depend on the processing

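Of the 68 gene and comparison pairs called, of 207 tested, 29 were called under every alternative run and 39 lost the call under at least 1. Total-count scaling ended 27 of the calls. Among pairs called with either scaling it reversed 5 values, LIF at 2 days of MS023 to 0.15, and in the difference between GSK591 and MS023 at 7 days CXCL2 to -0.60, CXCL5 to -0.57, IL11 to -0.96 and LIF to -0.996. Values called with neither scaling also changed sign and are not counted here. That scaling moved the median of all genes by -1.07 in that difference. With it the number of the 9 genes called went from 6 to 2 for 3 h of Dex, from 7 to 3 with GSK591 and Dex, from 7 to 3 with MS023 and Dex, from 5 to 3 at 7 days of GSK591, from 4 to 8 at 7 days of MS023, from 0 to 2 between the inhibitors at 2 days, from 1 to 0 between them at 4 days, from 4 to 7 between them at 7 days (all 7 lower with GSK591), from 1 to 0 for 15 min of Dex after either inhibitor, and from 1 to 0 in the MS023 interaction at 3 h. With DESeq2 it went from 2 to 1 at 2 days and from 4 to 2 at 4 days of GSK591, from 6 to 2 at 2 days of MS023, from 4 to 2 between the inhibitors at 7 days and from 1 to 0 in the MS023 interaction at 3 h, where CCL2 got no adjusted p. The compared groups alone gave 4 in place of 7 for MS023 with Dex and 1 in place of 0 between the inhibitors at 2 days, and no filter on low counts gave 2 in place of 4 between them at 7 days. Only the larger moves of a count are listed in this section. Smaller ones, also from leaving out 1 library, stand with each comparison above. DESeq2, for example, also ended the calls of CXCL8 and CXCL3 for 3 h of Dex and of CXCL3 at 7 days of GSK591. Apart from the missing adjusted p of CCL2, the cause of these shifts was not tested.

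With 1 library left out, so that a lone library was assumed to vary like the other groups, the number called with GSK591 was 1 to 1 (2 days), 2 to 2 (4 days) and 2 to 4 (7 days), and with MS023 it was 1 to 3 (2 days), 3 to 5 (4 days) and 1 to 4 (7 days). Between the inhibitors it was 0 to 1 at 4 days and 2 to 2 at 7 days, for 15 min of Dex 0 to 1 after GSK591 and 0 to 1 after MS023, and in the MS023 interaction at 3 h 0 to 1. Nothing in the labels pairs the replicate numbers between groups. The correlation of their deviations between groups was -0.453 to 0.493 and above 0.1 in 22 of 105 pairs of groups. These values do not decide whether some groups share a pairing. With the replicate number as a block 0 of the calls of the 9 genes changed, with 6 called for 3 h of Dex and 5 at 7 days of GSK591 as without it. Over all genes the replicate block moved the calls of MS023 with Dex against Dex alone from 45 to 114 and of the MS023 interaction at 3 h from 51 to 81. Depth limits CXCL8 in the groups with 3 h of Dex and IL6 throughout.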
